A study of Mus musculus with 8 samples.

Results

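The AP-1 and ATF factors described here were 10 genes: Fos, Fosb, Fosl1, Fosl2, Jun, Junb, Jund, Atf3, Maff and Batf. They were the rows of the normalized count table whose gene symbol is one of these names, 10 of 34432 rows. That rule reads the gene symbol only. Poly(A) RNA had been sequenced from untreated mouse macrophages differentiated in culture from bone marrow and harvested at day 7. There were 4 libraries per genotype, 8 in all, with the genotypes named VAV-cre (the controls) and CDK8CDK19KO (the double knockout, abbreviated DKO). Both groups carry, as far as the labels and the series title say, a Cre recombinase driven by Vav, which is active in blood-forming cells, and in the double knockout it acts on a floxed Cdk8 gene in animals null for Cdk19. The sources used here do not give the strain, age or sex, whether the controls carry floxed alleles, or whether libraries came from separate animals. The p-values therefore measure only how far these libraries spread, which may be technical. Over all genes, double knockout libraries 1 and 2 and libraries 3 and 4 formed close pairs (chi-square per gene of 8.01 and 9.08, where libraries of different pairs gave 19.2 to 26.4). The controls were uneven too, from 9.29 between libraries 2 and 3 to 38.2 between libraries 1 and 4. Whether the libraries of either group are independent is not known.

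AP-1 is a dimer of basic leucine zipper (bZIP) proteins that binds DNA at short palindromic sites. Jun proteins pair with each other or with Fos proteins, Fos proteins need a Jun partner to bind, and the dimer that forms sets which sites are bound and how strongly transcription is driven. Fos, Jun and Atf3 are immediate early genes, switched on within minutes of growth factor, cytokine or microbial signals by MAP kinases, serum response factor and CREB, and in macrophages their products take part in inflammatory gene expression and, for Fos, in the step from precursor to osteoclast. CDK8 and CDK19 are the alternative kinases of the Mediator complex, and CDK8 is known to take part in immediate early gene transcription.

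In the double knockout macrophages, Fos fell 3.11-fold and Junb 1.49-fold, while Atf3 rose 1.87-fold, Fosl2 1.66-fold and Batf 1.94-fold. Fosl1, low in the controls, fell to a few reads per library. Jund rose 1.22-fold with overlapping groups, and Jun, Fosb and Maff did not pass the test. Of the 10 members, all 10 passed the filter on low values (10 or more normalized counts in 4 or more libraries), 4 were higher and 3 lower at an adjusted p under 0.05 by limma. Among all 11675 genes tested, 46.6% were called, 22.9% higher and 23.8% lower. The groups did not overlap for 7 members, against 42.9% of all genes tested. The median log2 fold change of the members was 0.16 and the median size without sign was 0.71, against 0.01 and 0.31 for all genes tested. Fosl1, counted among the 3 lower and the 7 without overlap, passed the filter through the controls alone. The members were chosen with earlier results of these data known, and many genes were called. Neither the count of members called nor their median size of change is therefore read as a property of the family. In bulk RNA, fewer cells of a type and less RNA per cell cannot be told apart.

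**Figure D1:**
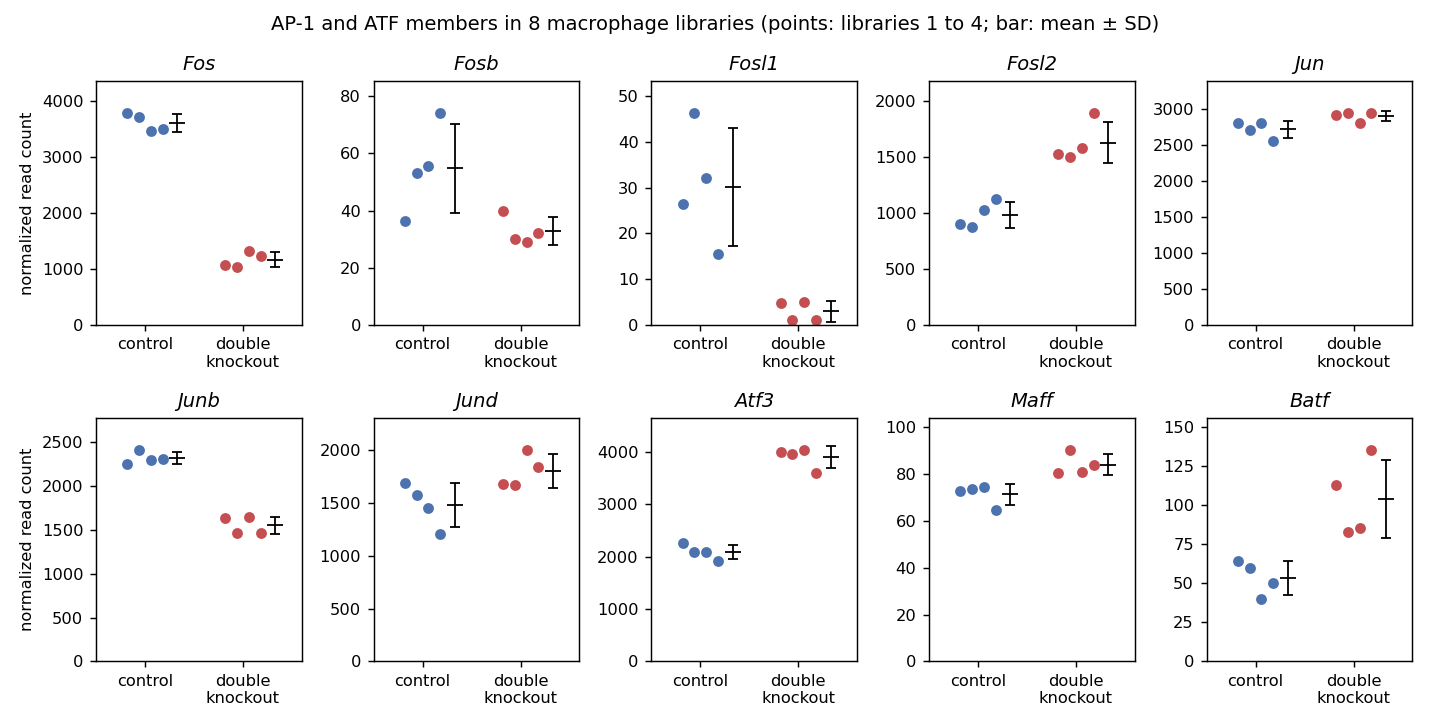
Each panel plots 1 member's normalized read count (y axis, starting at 0) in the control and double knockout libraries; points are single libraries and the bar is the mean ± SD of 4. The 4 double knockout points of Fos lie between 1035 and 1319, below all controls, and those of Atf3 lie between 3605 and 4050, above all controls.

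The bases before the RefSeq start site are shown for Fos and Junb, which fell, for Atf3, which rose, and for Jun, which did not pass the test, so that the promoter letters can be read beside the values. Each is 250 bases on build GRCm38.p6 (the primary sequence of mm10), 5′ to 3′ on the gene's own strand, and capitals mark TGACG (the core of the cAMP response element, on either strand) or TGACNTCA. The windows are chr12:85473640-85473889 (plus strand) for Fos, chr4:95052223-95052472 (minus strand) for Jun, chr8:84978749-84978998 (minus strand) for Junb and chr1:191183334-191183583 (minus strand) for Atf3.
Fos: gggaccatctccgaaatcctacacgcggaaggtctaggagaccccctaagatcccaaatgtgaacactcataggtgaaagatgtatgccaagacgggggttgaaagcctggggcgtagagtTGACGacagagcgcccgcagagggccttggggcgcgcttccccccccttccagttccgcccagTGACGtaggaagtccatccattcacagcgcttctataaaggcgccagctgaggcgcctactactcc
Jun: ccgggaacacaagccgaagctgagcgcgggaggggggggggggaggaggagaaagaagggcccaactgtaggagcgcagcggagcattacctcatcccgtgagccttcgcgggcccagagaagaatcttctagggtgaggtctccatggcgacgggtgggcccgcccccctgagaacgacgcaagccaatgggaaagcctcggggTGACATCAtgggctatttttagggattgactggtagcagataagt
Junb: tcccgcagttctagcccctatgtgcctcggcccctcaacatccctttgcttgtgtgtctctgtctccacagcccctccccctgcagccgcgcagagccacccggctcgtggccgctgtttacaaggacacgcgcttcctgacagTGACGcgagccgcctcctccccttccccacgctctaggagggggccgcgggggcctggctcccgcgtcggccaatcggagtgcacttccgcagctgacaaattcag
Atf3: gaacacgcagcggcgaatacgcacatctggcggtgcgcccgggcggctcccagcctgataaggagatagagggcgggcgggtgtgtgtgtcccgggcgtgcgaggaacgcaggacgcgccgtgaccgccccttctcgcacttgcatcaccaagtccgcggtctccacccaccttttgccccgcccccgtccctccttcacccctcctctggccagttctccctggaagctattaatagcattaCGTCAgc

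Fos, which fell the most among the well-expressed members, holds TGACG at 129 and 66 bases before its start, and Junb holds it at 106. Atf3 holds it at 7 bases, on the minus strand relative to the gene. Jun holds TGACATCA at 45 bases and no TGACG. Motifs were searched on both strands of windows from 250 bases before to 50 after the start. RefSeq held windows for 9 of the 10 members, 11 windows in all because Maff has 3. TGACG lay in the windows of 6 of the 9 members (Fos, Fosb, Junb, Atf3, Maff and Batf) and in 20.9% of all 32544 promoters of the table. The 8-base element TGACGTCA, which contains TGACG, lay in 1 Maff window, 29 bases before that start, and in 1.80% of promoters. TGACNTCA, which includes TGACGTCA and was added after the Jun window had been looked at, lay in the Jun window, in 2 Maff windows and in 8.62% of promoters. No member held the AP-1 site TGANTCA or the CArG box of serum response factor in these windows, against 7.79% and 1.64% of promoters. Sites outside these windows, and CArG boxes that depart from the strict consensus, were not searched. The absence holds for these windows and letters only. A match of letters is a description of the window and not a bound site. The RefSeq start of Atf3 lies 34706 bases inside the gene as annotated by GENCODE, that of Fosl2 671 bases inside, and those of the other 2 Maff windows 899 and 1781 bases inside. The RefSeq start of Jund lies 1210 bases outside its annotated gene, upstream of it. The windows therefore belong to 1 of several possible starts.

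Within the Fos family, Fos (chr12:85473890-85477273, mm10, plus strand), the founding member and the family's strong transactivator, had normalized counts of 3792, 3715, 3461 and 3495 in control libraries 1 to 4 and of 1072, 1035, 1319 and 1228 in double knockout libraries 1 to 4. Every control library lay above every double knockout library, and the lowest control was far from the highest knockout. The means were 3616 ± 163 and 1164 ± 133 (SD, n = 4 each), so the double knockout kept 32.2% of the control level. The log2 fold change was -1.64 (SE 0.08, 95% interval -1.82 to -1.46, adjusted p = 2.22e-08 by limma with Benjamini-Hochberg adjustment), and 4.09% of all genes tested had a lower one. Double knockout libraries 3 and 4 held more Fos than 1 and 2. With only libraries 1 and 2, or only 3 and 4, the call and its direction were kept.

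Fosl1 (chr19:5447547-5455946, plus strand), which encodes Fra-1, a Fos relative without the strong transactivation domain of Fos, had 26.5, 46.4, 32.2 and 15.4 normalized counts in the controls and 4.85, 1.01, 5.0 and 0.97 in the double knockout. The groups did not overlap, and the double knockout values rest on 5, 1, 5 and 1 reads, 12 in all against 120 in the controls. Means were 30.1 ± 12.9 and 2.96 ± 2.27 (SD, n = 4 each), a ratio of 10.2. On the log2 scale the fold change was -3.08 (SE 0.57, adjusted p = 0.000966 by limma), and with a pseudocount of 10 in place of 1 it was -1.59. Fosl1 passed the filter through the controls alone, so it could enter the test only as a gene lower in the double knockout. It overlaps Ccdc85b on the opposite strand, which had 138.5 ± 43.2 and 171.9 ± 23.8 and did not pass the test (adjusted p = 0.212), and the sources used here do not say whether reads were counted by strand.

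Fosl2 (chr5:32135801-32157842, plus strand), which encodes the related factor Fra-2, went the other way. It had 905, 876, 1022 and 1123 normalized counts in the controls and 1530, 1501, 1582 and 1895 in the double knockout. All 4 double knockout libraries lay above all controls, with library 4 of each group the highest. Its log2 fold change was 0.73 (SE 0.10, 95% interval 0.51 to 0.95, adjusted p = 0.000104 by limma), from 982 ± 114 to 1627 ± 182 (SD, n = 4 each).

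Fosb (chr7:19302696-19310051, minus strand), an immediate early relative of Fos, was low in both groups, with 36.4, 53.2, 55.5 and 74.3 normalized counts in the controls and 39.8, 30.2, 29.0 and 32.2 in the double knockout. Control 1 fell within the double knockout range, so the groups overlapped. The log2 fold change was -0.69 (SE 0.27, 95% interval -1.27 to -0.11) with adjusted p = 0.0506 by limma, just outside the threshold. It was called lower in 6 of 19 alternatives, among them edgeR (adjusted p = 0.0481), DESeq2 (adjusted p = 0.0415) and the fit without control 1 (adjusted p = 0.0194), and the range over all of them was 0.0194 to 0.192.

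In the Jun family, Jun (chr4:95049034-95052222, minus strand), the main partner of Fos, had 2810, 2716, 2808 and 2558 normalized counts in the controls and 2923, 2951, 2808 and 2954 in the double knockout. The groups met at 2808 to 2810, where control libraries 1 and 3 and double knockout library 3 nearly coincide. The fitted log2 fold change was 0.10 (SE 0.06, adjusted p = 0.186 by limma), and its 95% interval ran from 0.981-fold to 1.16-fold. Jun overlaps a gene on the opposite strand that is not analysed here, and so do Jund and Atf3. Overlaps were taken over whole gene spans. The strand uncertainty holds for these genes only where exons overlap, which was not checked.

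Junb (chr8:84974484-84978718, minus strand), a Jun relative that can replace Jun in the dimer and drives many promoters less strongly, had 2254, 2417, 2302 and 2307 normalized counts in the controls and 1631, 1468, 1647 and 1465 in the double knockout. The groups were well apart, with the lowest control above the highest double knockout library. The means were 2320 ± 68.8 and 1553 ± 99.6 (SD, n = 4 each), so the double knockout held 66.9% of the control level. The log2 fold change was -0.58 (SE 0.06, 95% interval -0.72 to -0.44, adjusted p = 1.95e-05 by limma). Junb overlaps Prdx2, a peroxiredoxin gene on the opposite strand, which had 3214 ± 479 and 3858 ± 362 and did not pass the test (adjusted p = 0.0572), so the values of both are uncertain where their reads could be shared.

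Jund (chr8:70698949-70700616, plus strand), a Jun relative that most resting cells express, had 1693, 1580, 1449 and 1208 normalized counts in the controls and 1684, 1673, 2008 and 1847 in the double knockout. Control 1 lay above double knockout libraries 1 and 2, and control 4 was the lowest of all. The log2 fold change was 0.29 (SE 0.10, 95% interval 0.06 to 0.52, adjusted p = 0.0387 by limma). This call was lost in 9 of 20 alternatives, among them the fits without control 3 (adjusted p = 0.0825), control 4 (0.0793), double knockout 3 (0.110) and double knockout 4 (0.0855), and it was 0.286 with only double knockout libraries 1 and 2. Without control 4 the log2 fold change was 0.19, and adjusted p ranged from 0.0149 to 0.286 over the alternatives.

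Among the other members, Atf3 (chr1:191170296-191218039, minus strand), a stress-induced factor known in macrophages for restraining Toll-like receptor target genes, had 2256, 2099, 2101 and 1921 normalized counts in the controls and 4008, 3970, 4050 and 3605 in the double knockout. The lowest double knockout library was well above the highest control. Means were 2094 ± 137 and 3908 ± 205 (SD, n = 4 each), and the log2 fold change was 0.90 (SE 0.07, 95% interval 0.75 to 1.05, adjusted p = 6.07e-07 by limma). Atf3 had the smallest adjusted p among the members that rose.

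Batf (chr12:85686669-85709087, plus strand), a bZIP factor that pairs with Jun proteins and binds with interferon regulatory factors in lymphocytes and dendritic cells, had 63.9, 59.9, 39.95 and 50.15 normalized counts in the controls and 112.6, 82.4, 85.0 and 135.5 in the double knockout. All double knockout libraries were above all controls, with libraries 1 and 4 the highest. Batf had a log2 fold change of 0.94 (SE 0.23, 95% interval 0.43 to 1.44, adjusted p = 0.00564 by limma). Maff (chr15:79346621-79359076, plus strand), a small Maf protein that has no transactivation domain of its own, had 72.7, 73.5, 74.4 and 64.6 normalized counts in the controls and 80.6, 90.5, 81.0 and 83.8 in the double knockout. Its groups did not overlap, yet the log2 fold change of 0.23 (SE 0.16, 95% interval -0.13 to 0.59) did not pass the test (adjusted p = 0.268 by limma). Maff was called only by limma without its trend and robust options (adjusted p = 0.0321).

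**Figure D2:**
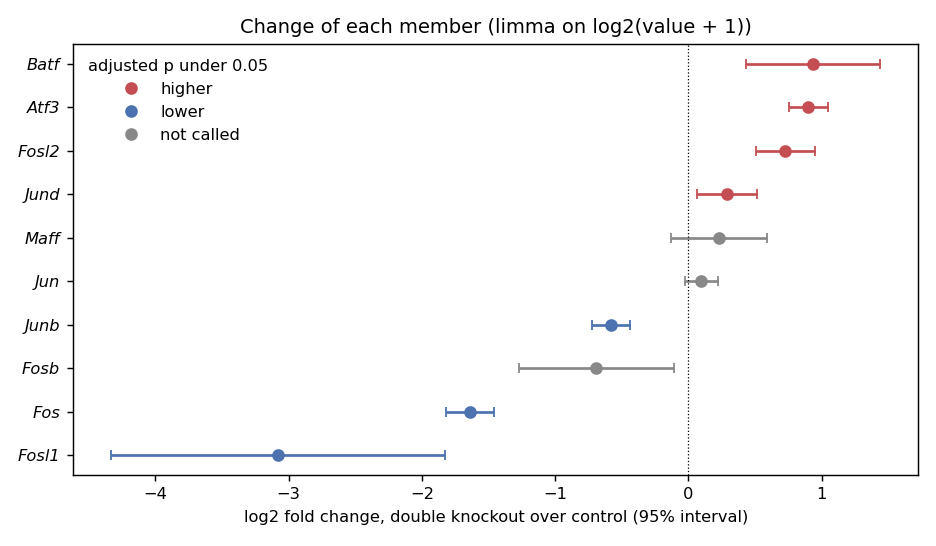
Points are log2 fold changes of double knockout over control for the 10 members, with 95% intervals from limma, coloured by call. Fosl1 at -3.08 and Fos at -1.64 stand farthest to the left, and Batf at 0.94 and Atf3 at 0.90 farthest to the right.

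Levels of different genes were compared per kilobase of exons. In controls Fos was the highest member, at 1537 ± 69.1 normalized counts per kb, and no other member's libraries reached it. Next came Junb (1008 ± 29.9), Atf3 (972 ± 63.7), Jund (889 ± 125) and Jun (854 ± 37.0), whose libraries overlapped from each to the next in this order. Fosl2 (101 ± 11.7) was lower and apart from its neighbours, Batf (38.0 ± 7.62) and Maff (27.5 ± 1.74) overlapped, and Fosl1 (14.8 ± 6.34) and Fosb (8.78 ± 2.48) overlapped at the bottom. In the double knockout the order was Atf3 (1814 ± 95.2), Jund (1081 ± 94.7), Jun (912 ± 21.6), Junb (675 ± 43.3) and Fos (495 ± 56.7), and the libraries of these 5 did not overlap. Fos thus had rank 1 of 10 in controls and rank 5 in the double knockout, and Atf3 had rank 3 and rank 1. With the longest annotated transcript as the length, Fos again had rank 1 in controls and rank 5 in the double knockout, and there Jun and Junb overlapped. In controls Junb (1246 to 1336) then lay above all Atf3 libraries (968 to 1137), and Batf (41.8 to 66.9) above all Maff libraries (33.0 to 38.0).

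The summed Fos family level per kb was 1662 ± 59.8 in controls and 670 ± 67.7 in the double knockout, with no overlap (1602 to 1724 against 601 to 732). Fos supplied 92.5% ± 0.859 of that sum in controls and 73.8% ± 1.97 in the double knockout, and Fosl2 6.12% ± 0.90 and 25.2% ± 2.00. The summed Jun family level was 2751 ± 158 and 2668 ± 97.9, with overlapping libraries. Within it the share of Junb was 36.7% ± 2.29 and 25.3% ± 1.28, that of Jund 32.2% ± 2.81 and 40.5% ± 2.15, and that of Jun 31.1% ± 0.984 and 34.2% ± 1.97. The Fos to Jun family ratio was 0.605 ± 0.0251 in controls and 0.251 ± 0.0184 in the double knockout. With the longest transcript as the length the ratio was 0.628 and 0.284, and the shares moved beyond these SDs for several genes. The share of Fos was then 90.4% and 68.0%, and that of Fosl2 7.94% and 30.7%. The share of Junb was 42.5% and 30.1%, that of Jund 29.3% and 37.9%, and that of Jun 28.2% and 32.0%. These sums are RNA levels, each mean ± SD over 4 libraries, and no test was run on them because the members were chosen with earlier results known.

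**Figure D3:**
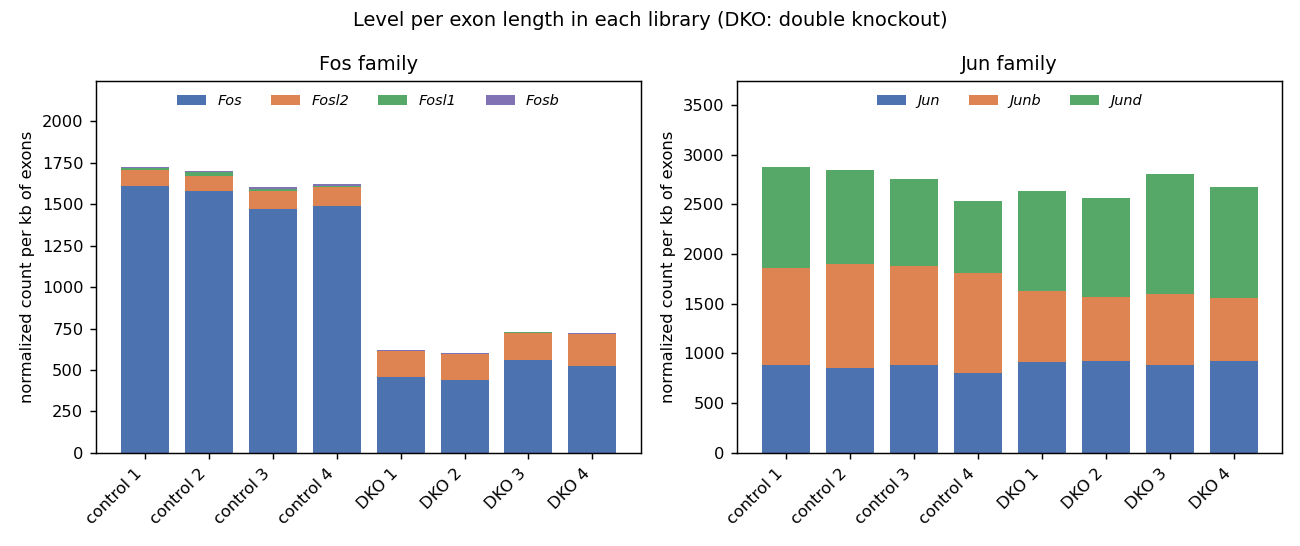
Stacked bars give the normalized count per kb of exons of the Fos family (left) and the Jun family (right) in each of the 8 libraries, coloured by gene. The Fos family bars are between 1602 and 1724 in controls and between 601 and 732 in the double knockout, while the Jun family bars overlap between the groups.

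Other bZIP genes, partners or relatives of the members, were described by a list of 30 genes, of which 26 were tested: 11 were higher, 3 lower and 12 not called. The share called, 53.8%, is near the 46.6% of all genes tested, and the median log2 fold change was 0.10. The gene with the smallest adjusted p was Atf5, a factor of the mitochondrial stress response, at 704.3 ± 81.6 normalized counts in controls and 1997 ± 178 in the double knockout (2.84-fold higher, adjusted p = 1.73e-07 by limma, n = 4 each). Crem, whose short isoforms repress cAMP-responsive promoters, rose 2.46-fold, from 253.6 ± 21.2 to 625.0 ± 67.3 (adjusted p = 1.77e-06). The small Maf gene Mafg rose 1.39-fold, from 2407 ± 51.4 to 3354 ± 179 (adjusted p = 4.14e-05). The 3 that fell were Maf, Jdp2 and Atf6, named after their values were seen. Maf, a large Maf factor expressed in macrophages, went from 9920 ± 238 to 7579 ± 72.5 (adjusted p = 6.03e-05). Atf6, a factor of the endoplasmic reticulum stress response, fell 1.26-fold (adjusted p = 0.0193), a call lost in 5 of 20 alternatives, among them the fits without double knockout 3 (adjusted p = 0.0600) and 4 (0.0502). Jdp2, a Jun dimerization partner that represses AP-1 sites, fell 1.38-fold (adjusted p = 0.00467). The closest relative of Batf in the list that was tested, Batf2, also named after its value was seen, rose 2.00-fold (adjusted p = 0.00250).

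The MAP kinase route that leads to Fos and Jun was described by 24 genes in the table, all tested: 5 were higher, 9 lower and 10 not called. The share called was 58.3%, against 46.6% of all genes tested, and the median log2 fold change was -0.06. Rps6ka5, which encodes MSK1, a kinase of CREB and histone H3 at immediate early genes, fell 2.47-fold, from 552.9 ± 20.6 to 224.3 ± 22.4 (adjusted p = 1.07e-06 by limma, n = 4 each). Rps6ka1, which encodes the ERK-activated kinase RSK1, fell 1.5-fold (adjusted p = 1.63e-05), and Mapk14, which encodes p38α, fell 1.32-fold (adjusted p = 0.000280). Of 6 genes for serum response factor and its ternary complex partners, 3 were higher and none lower, among them Srf itself (1074 ± 49.8 to 1290 ± 58.8, adjusted p = 0.00780, or 0.0772 with only double knockout libraries 1 and 2) and Elk3, a partner (2842 ± 94.9 to 3446 ± 120, adjusted p = 0.00160).

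Immediate early genes outside AP-1, which are induced with Fos by the same signals, moved in both directions. Of 29 tested, 9 were higher, 8 lower and 12 not called. The share called was 58.6%, against 46.6% of all genes tested, and the median log2 fold change was 0.05. Ptgs2, counted among the 8 lower, passed the filter only through the controls. Rhob, a small GTPase gene, rose 1.79-fold (2521 ± 104 to 4506 ± 121, adjusted p = 2.28e-07 by limma, n = 4 each). The nuclear receptor gene Nr4a1 rose 2.26-fold (167.0 ± 17.0 to 377.9 ± 32.2, adjusted p = 9.29e-06), and Gadd45b, a stress gene, 2.27-fold (155.9 ± 16.3 to 354.0 ± 29.4, adjusted p = 1.10e-05). Klf2, a zinc finger factor that restrains macrophage activation, fell 2.73-fold (420.1 ± 68.8 to 154.0 ± 17.4, adjusted p = 7.39e-06). Egr1, the zinc finger gene most often measured beside Fos and named after its value was seen, was low and fell from 31.7 ± 5.92 to 13.9 ± 3.14 (adjusted p = 0.0119).

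**Figure D4:**
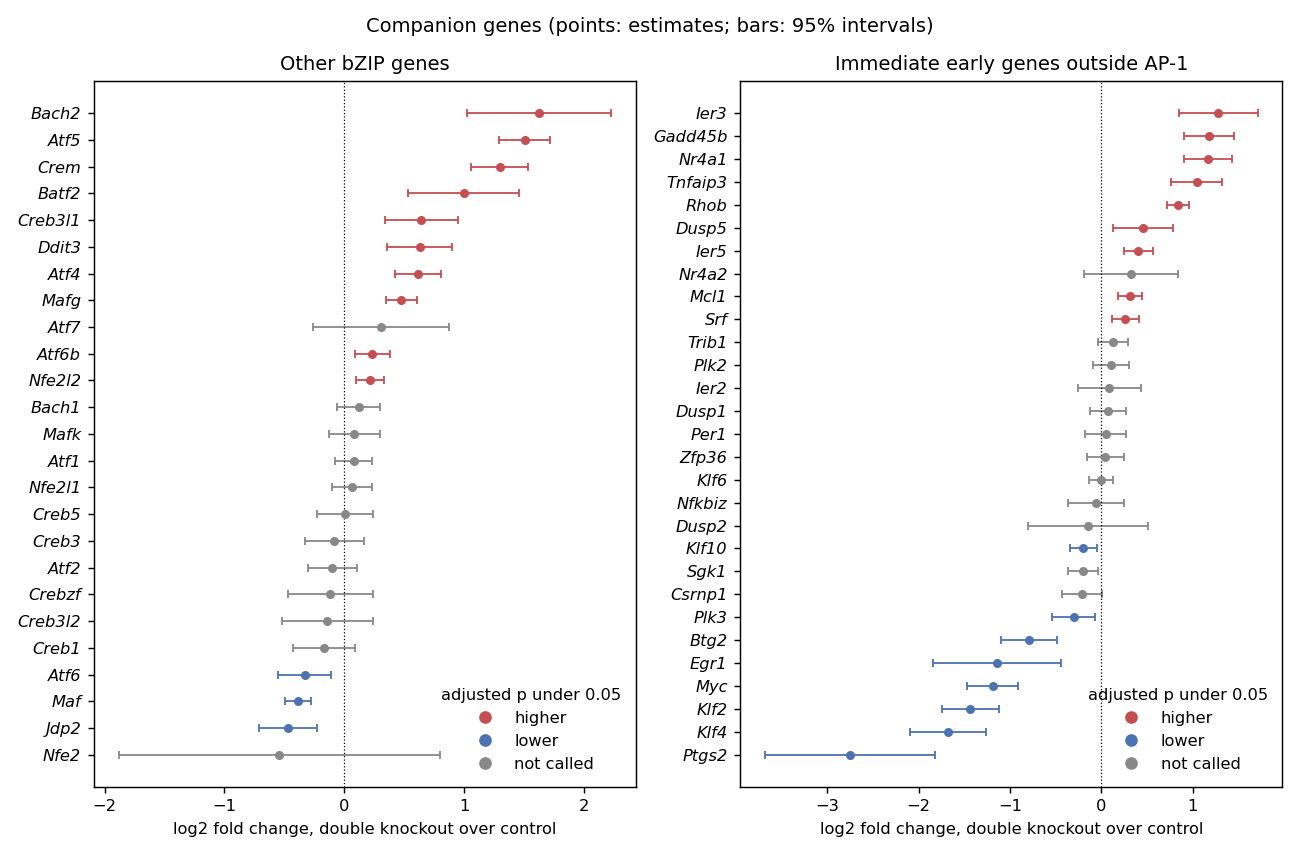
Points are log2 fold changes of double knockout over control with 95% intervals from limma for bZIP genes outside the members (left, all but 1 of the 26 tested) and the tested immediate early genes outside AP-1 (right, 29 genes), coloured by call. In the right panel 9 genes are called higher and 8 lower.

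Known AP-1 target genes were described by 28 genes, of which 26 were tested: 7 were higher, 14 lower and 5 not called (80.8% called, against 46.6% of all genes tested, median log2 fold change -0.46). The list holds the member Fosl1 and shares S100a8 and S100a9 with the neutrophil markers, Ptgs2 and Dusp1 with the immediate early genes and Mmp9 with the osteoclast genes. Of these 6 genes all but Dusp1 are among the 14 lower. Fosl1, Mmp9 and Ptgs2 passed the filter only through the controls, so they could enter the test only as lower. The list was chosen with earlier results of these data known, so its share called is not read as a property of AP-1 targets. Ccnd1, the cyclin D1 gene, fell 4.01-fold (26444 ± 1283 to 6593 ± 220, adjusted p = 4.23e-10 by limma, n = 4 each), and Plau, the urokinase gene, fell 3.18-fold (17622 ± 323 to 5538 ± 229, adjusted p = 7.17e-10). The collagenase gene Mmp13 went the other way, 13.4-fold higher (252.8 ± 34.3 to 3391 ± 229, adjusted p = 4.23e-10), as did the macrophage elastase gene Mmp12, 4.88-fold higher (1018 ± 86.7 to 4973 ± 367, adjusted p = 1.19e-09). Of the osteoclast genes downstream of Fos, 9 were tested, with 4 higher, 3 lower and 2 not called (77.8% called, against 46.6% of all genes tested). This list too was chosen with earlier results known, so its share is not read as a property of these genes. Itgb3, an integrin of osteoclasts, rose 10.6-fold (38.2 ± 7.65 to 405.7 ± 42.8, adjusted p = 2.56e-08), Acp5, the tartrate-resistant phosphatase gene, rose 1.90-fold (adjusted p = 0.000138) and Src, a kinase gene needed for bone resorption, 1.94-fold (adjusted p = 0.000284). Tnfrsf11a, which encodes the receptor RANK, fell 1.77-fold (4975 ± 118 to 2812 ± 222, adjusted p = 9.52e-07). The other genes called, named after their values were seen, were Ocstamp, Mmp9 and Atp6v0d2. Ocstamp fell 3.58-fold (62.6 ± 11.4 to 17.5 ± 6.53, adjusted p = 0.000902 by limma) and Mmp9 9.72-fold (70.1 ± 34.1 to 7.21 ± 4.67, adjusted p = 0.000735). Both passed the filter only through the controls. Atp6v0d2 rose 1.47-fold (adjusted p = 0.000746). Nfatc1, the osteoclast master regulator downstream of Fos and named after its value was seen, had 1085 ± 69.6 and 1025 ± 52.9 and did not pass the test (adjusted p = 0.396).

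**Figure D5:**
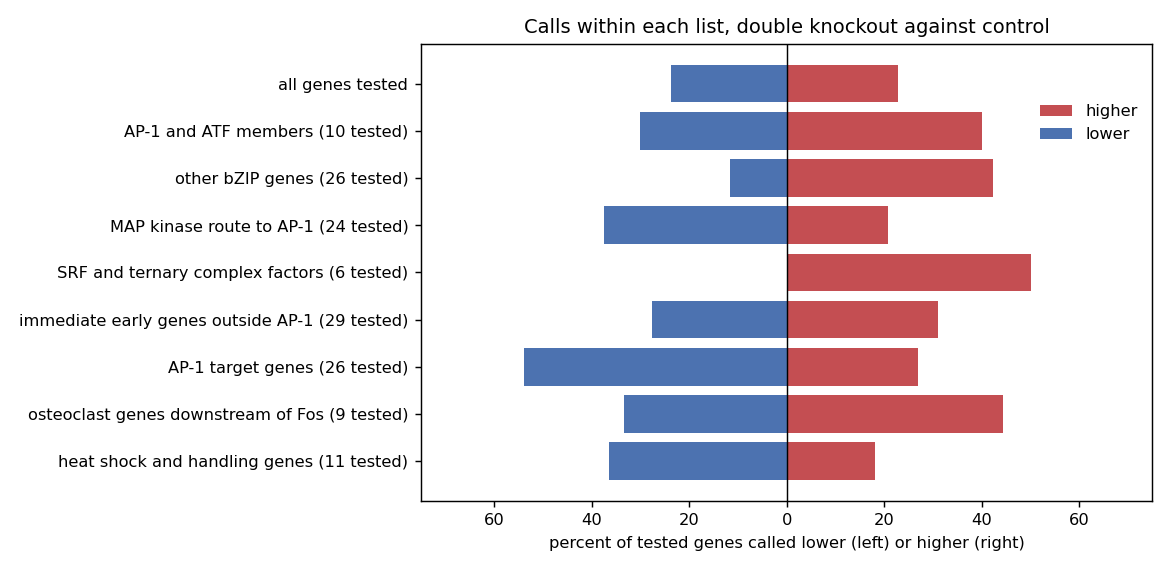
Bars give the percent of tested genes called higher (right) or lower (left) in the double knockout for the members, for 7 companion lists and for all genes tested. For all genes the bars reach 22.9% higher and 23.8% lower, and for the 10 members 4 genes are higher and 3 lower.

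Over the 8 libraries, the genes whose log2 values were most like those of Fos, among 10035 with a mean of at least 50, were Cdkn1a, Ckap2l, Pak1, Kif23 and Ahcy, each with Pearson r of 0.998. Since Fos separates the groups, this likeness mostly repeats the genotype: 1286 genes had r of at least 0.9. Among the members Junb had r of 0.977 with Fos, Atf3 -0.976 and Fosl2 -0.922. Taken as deviations from the group means, where genotype no longer counts, the most similar genes were Myd88 (r of 0.989), Neurl1a (0.982), Trim27 (0.980), Acd (0.978) and Ahcy (0.97), and 102 genes had r of at least 0.9. On that measure Jund had r of 0.724 with Fos, Junb 0.269, Atf3 0.084 and Fosl2 0.101. The Fos deviations include the split of the close double knockout pairs (1072 and 1035 in libraries 1 and 2, 1319 and 1228 in 3 and 4). The part of that split in these r values was not tested. All r values are descriptions over 8 libraries that share their groups.

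Libraries held 17856715 to 21353207 recovered reads. Of the targeted genes, Cdk19 fell to 25.7% of the control level, while Cdk8 RNA stood at 79.2% (439 ± 24.5 against 347 ± 60.8, adjusted p = 0.0374 by limma, with a call lost in 12 of 20 alternatives); no value here shows which part of either gene is altered. The summed level of 12 macrophage markers, led by Lyz2, was 314489 to 331187 in controls and 248077 to 268464 in the double knockout, with 7 higher and 5 lower; Marco was low, at 62.4 ± 22.0 and 204.9 ± 28.2. Monocyte markers had 4 of 8 tested lower and sums of 5829 to 6447 against 1762 to 2897, and neutrophil markers 8 of 12 lower and sums of 2660 to 4361 against 1336 to 1625. Among all genes tested, 23.8% were called lower. Camp and Elane, counted among the 8 lower neutrophil markers, passed the filter only through the controls. All 8 cell division genes were lower, with sums of 34773 to 38228 against 10518 to 10724. Dendritic cell markers had none of 3 called, with sums of 4204 to 5010 against 4064 to 4606, most of it Irf8, and Cd209a was at 0 in all libraries. T, B and NK cell markers summed to 176 to 211 against 191 to 246, with Cd3e, Cd3d, Cd3g, Ncr1 and Gzmb among those at 0 throughout. Of the 3 tested, Cd4 rose 5.69-fold (23.9 ± 9.26 to 136.0 ± 17.7, adjusted p = 1.93e-05 by limma) and Cd79b fell 2.61-fold (133.5 ± 9.97 to 51.2 ± 8.32, adjusted p = 6.34e-05). Batf is also expressed in those cells, and the part of these genes in its value was not tested. Of the 10 genes for fibroblasts and endothelium, 5 were tested and sums were 385 to 589 and 259 to 449. Pecam1 rose 2.38-fold (35.9 ± 5.44 to 85.3 ± 14.7, adjusted p = 0.000800), and Col1a2 was called lower (123.0 ± 20.03 to 80.6 ± 29.2, adjusted p = 0.0450), a call lost in 14 of 20 alternatives. Marco, Cd4 and Pecam1 were named after their values were seen. Mast cell and basophil markers summed to 8.88 to 53.0 and 9.74 to 56.0, and erythroid markers to at most 9.74. Heat shock genes, listed as a mark of handling, had 2 of 11 tested higher (Hspe1 and Hsph1) and 4 lower. Among the lower were Hsp90aa1 (9085 ± 568 to 5983 ± 100, adjusted p = 6.24e-06 by limma) and Hspa8 (37756 ± 1831 to 28492 ± 786, adjusted p = 0.000101). Hspa1a (12.5 ± 8.61 and 13.1 ± 5.92, adjusted p = 0.763) and Hspa1b (18.4 ± 4.27 and 12.6 ± 3.41, adjusted p = 0.277) were low and not called. The part of monocyte, neutrophil, cell division and heat shock genes in the values of Fos, Junb and Atf3 was not tested.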

How the data were processed

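RNA had been extracted on day 7 of differentiation, selected for poly(A), prepared with a Roche Kapa kit and sequenced as read pairs, per the labels' protocols. Salmon 1.4.0 and DESeq2 with build mm10 are named in the submitters' processing notes; for the annotation release, transcript import, filters and strand setting, the sources used here give nothing. The deposited values are a signal: normalized counts, 1 value per gene and library, which the authors had divided by 1 size factor per library. Undoing the division gave whole numbers for 100% of values within a tolerance of 0.01 in each of the 8 libraries, with size factors of 0.901 to 1.04. These whole numbers are called reads here and sum to 17856715 to 21353207 per library. The sources used here do not say whether they are observed or rounded estimated counts, or counts of read pairs. Every column was mapped to a sample by its name.

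The test was limma 3.58.1 (R 4.3.3) on log2(value + 1), with genotype as the only term (two-sided, robust and trend options, Benjamini-Hochberg adjustment over all 11675 genes tested, threshold 0.05). Genes needed 10 or more normalized counts in 4 or more libraries. Fold changes in the text with a word such as 1.5-fold are ratios of mean normalized counts, and log2 fold changes carry the pseudocount and understate low genes. A permutation test planned for members below the filter had no member to run on. Levels per kb used the union of exons in a GENCODE annotation of mm10. Motifs were searched in RefSeq promoters of GRCm38.p6, which hold 9 of the 10 members and not Fosl1. Alternatives were other pseudocounts and filters, limma without trend and robust options, quantile normalization, edgeR 4.0.16 and DESeq2 1.42.0 on recovered reads, a replicate block, each library left out, the close double knockout pairs averaged, and, added after seeing the data, each pair alone.

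The chi-square per gene between libraries of a group was 8.01 to 38.2, so none was a repeat deposit. Double knockout libraries 1 and 2 (8.01) and 3 and 4 (9.08) were closer than across pairs (19.2 to 26.4). Control libraries 2 and 3 gave 9.29 and control libraries 1 and 4 gave 38.2. The independence of the libraries in either group is not known. The code was tested on simulated data. The members and lists were chosen with earlier results of these data known. Named genes were all members, up to 4 per list with the smallest adjusted p, the highest-mean gene of cell type lists and the 5 most like Fos by each measure; some genes that the rule takes are not reported here. Ocstamp, Mmp9, Atp6v0d2, Camp, Elane, Hspe1, Hsph1, Hspa1a and Hspa1b were named last and are not among the genes followed over the alternatives. Mrtfa and Mrtfb were listed also by the older symbols Mkl1 and Mkl2.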

Additional observations from a re-analysis of the deposited data

Results flagged for a closer look

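In 3 of 120 groups of 4 libraries, over 60 named genes, a library lay far from the others of its group, by a rule that chance meets in about 1 group in 20. Maff had its lowest control value in control 4, at 64.6 against 72.7 to 74.4 in the other controls. Rhob had its highest double knockout value in library 3, at 4687 against 4431 to 4461. Pcna, a cell division gene, had its lowest control value in control 4, at 12050 against 13673 to 14005.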

How the results depend on the processing

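Over 20 alternatives, 182 of 198 values of members and 962 of 999 values of 50 other named genes kept their direction and their side of the threshold. Members called higher numbered 3 or 4 and members called lower 2 to 4; the lowest count of 2 came with a mean of at least 50, which leaves Fosb and Fosl1 untested. Fos, Fosl2, Junb, Atf3 and Batf kept their calls wherever they were tested, with adjusted p of at most 0.0388 (Batf). Fosl1 kept its call where tested too, but under the filter it could enter only as a gene lower in the double knockout. With each library left out, genes higher ranged from 2277 to 2616 and genes lower from 2392 to 2717, against 2671 and 2773 with all libraries. With the double knockout pairs averaged the counts were 1924 and 2208, and with libraries 1 and 2 only, 1784 and 2138. Csf3r turned from 0.10 to -0.00626 with double knockout libraries 3 and 4 only, and Acd turned from 0.08 to -0.019 without double knockout 3 (0.15 at most with another library left out) and to -0.11 with libraries 1 and 2 only; neither was called in any of these fits.

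Same-numbered libraries did not deviate together (correlations of -0.05, 0.03, -0.04 and -0.04), so the numbers are not taken to pair the samples. In the fit with the replicate block, 2215 genes were higher and 2434 lower, with 3 members higher and 3 lower, since Jund had an adjusted p of 0.0785. At the depth of these libraries Fosl1 rests on 1 to 5 reads per double knockout library, which limits its fold.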
